A study of Homo sapiens with 24 samples.

Results

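The 37 genes of the human mitochondrial genome were followed through 24 RNA-seq libraries of 3 breast cancer cell lines treated with an EZH2 inhibitor, an AKT inhibitor or both. They were taken as all entries of the per-library count files whose symbol starts with MT-, which were 37 of 58735 entries: 13 mRNAs, 2 rRNAs and 22 tRNAs. The lines were HCC1937, HCC38 and HCC1395, established lines known as triple-negative breast cancer lines. EZH2i was 5 uM tazemetostat, an inhibitor of EZH2, the histone methyltransferase of the PRC2 repressor complex. AKTi was ipatasertib, also at 5 uM, which blocks the AKT kinases that act below PI3K in growth signalling. HCC1937 and HCC38 were each given EZH2i+AKTi or DMSO, the solvent control. HCC1395 was given EZH2i, AKTi, EZH2i+AKTi or DMSO. Each of the 8 groups held 3 libraries, named A, B and C. The labels give a treatment timeline only for another line, so the duration is not stated here. Nothing in the labels says that the libraries of a group were grown apart, so the p-values rest on the spread among libraries alone, and that spread may be technical.

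The mitochondrial genome is a small circular DNA kept in many copies per cell. It is copied out as long RNAs from its heavy and light strands, and the tRNAs that lie between the other genes mark where these RNAs are cut into single products. Here 28 of the 37 genes were heavy-strand products and 9 were light-strand products, with MT-ND6 the only light-strand mRNA. The 13 mRNAs encode core subunits of the respiratory chain: MT-ND1 to MT-ND6 and MT-ND4L of complex I, MT-CYB of complex III, MT-CO1 to MT-CO3 of complex IV, and MT-ATP6 and MT-ATP8 of ATP synthase, complex V. MT-RNR1 and MT-RNR2 are the rRNAs of the small and large subunits of the mitochondrial ribosome. All further proteins for copying, transcribing, cutting and translating these RNAs are encoded in the nucleus.

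Some of these genes are read from the same bases, which bears on the counts below. MT-ATP8 lies at chrM:8366-8572 on the plus strand and shares its last 46 bases with MT-ATP6. MT-ND4L ends at chrM:10727-10766 with 7 bases that also begin MT-ND4. The tRNAs MT-TL1, MT-TN and MT-TC are shown because they carried much of the tRNA signal, MT-TL1 mainly in HCC38, and MT-TN and MT-TC carried the changes in HCC38. MT-TL1, for leucine, lies at chrM:3230-3304 on the plus strand, directly after MT-RNR2 and just before MT-ND1. MT-TN, for asparagine, at chrM:5657-5729, and MT-TC, for cysteine, at chrM:5761-5826, lie on the minus strand between MT-ND2 and MT-CO1. The sequences are read 5′ to 3′ from GRCh38 with GENCODE 29, with shared bases in capitals for the mRNAs; in MT-TC the capital marks the base shared with MT-TY.
MT-ATP8: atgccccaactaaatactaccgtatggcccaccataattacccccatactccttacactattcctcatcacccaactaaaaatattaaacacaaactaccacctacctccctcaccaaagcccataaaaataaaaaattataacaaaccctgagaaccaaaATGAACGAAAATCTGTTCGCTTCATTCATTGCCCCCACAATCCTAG
MT-ND4L, last 40 bases: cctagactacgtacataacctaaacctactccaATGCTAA
MT-TL1: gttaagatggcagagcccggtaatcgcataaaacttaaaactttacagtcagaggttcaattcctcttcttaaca
MT-TN: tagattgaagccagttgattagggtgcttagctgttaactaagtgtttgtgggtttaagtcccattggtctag
MT-TC: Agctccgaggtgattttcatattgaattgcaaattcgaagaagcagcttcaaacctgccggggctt

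The libraries held between 33469927 and 51815656 counts. They were made from poly-T selected RNA. The rRNAs and tRNAs, which lack long poly(A) tails, were therefore captured only in part, and their levels are levels in these libraries. How fully each mRNA was captured was not tested. The labels do not say whether strand was kept in counting. Counts of the light-strand genes, the mRNA MT-ND6 among them, and of RNA from the opposite strand therefore cannot be told apart. The epithelial keratin KRT8 averaged 3506 CPM (counts scaled to the library total and given per 1000000) in HCC1937, 984 in HCC38 and 31.7 in HCC1395 with DMSO, where the epithelial adhesion genes EPCAM and CDH1 were at 1.72 and 0.340 CPM. The leukocyte marker PTPRC was at most 1.12 CPM on average in any group. One library stood apart: HCC38 EZH2i+AKTi C had a total mitochondrial share of 7.77% of its counts, against 4.76% and 5.19% in its sister libraries A and B. Its RN7SL2, an RNA without a poly(A) tail, was at 1.16 CPM, against 36.6 and 7.94 CPM in A and B. The main results in HCC38 are also given without that library.

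The 3 classes of mitochondrial RNA took different courses in the 3 lines. In HCC1395 the 13 mRNAs together made up 4.73, 4.09 and 4.16% of all counts with EZH2i, 5.21, 5.07 and 4.86 with AKTi and 5.67, 5.72 and 5.62 with the combination, against 3.61, 3.48 and 3.59% with DMSO. Every library of each treated group was above every DMSO library, every AKTi library was above every EZH2i library, and every combination library was above every AKTi library. In HCC38 the mRNA share was 3.81, 4.14 and 6.41% with EZH2i+AKTi, against 4.53, 4.002 and 4.55% with DMSO. Only library C lay above the DMSO libraries there. In HCC1937 the share was 3.74, 3.52 and 4.47% with EZH2i+AKTi, against 2.68, 3.59 and 3.41% with DMSO, and these ranges overlapped. A sum over the members was given no test. In these bulk libraries, more copies of the mitochondrial genome per cell and more RNA per copy cannot be told apart.

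The rRNAs and tRNAs did not follow the mRNAs in every line. The rRNA share in HCC1937 was 3.34, 3.19 and 4.06% with EZH2i+AKTi, against 2.11, 2.77 and 2.71% with DMSO, with no overlap. The tRNA share in HCC38 was 0.0245, 0.0269 and 0.0279% with EZH2i+AKTi, against 0.0494, 0.0446 and 0.0481% with DMSO. All treated libraries were below all DMSO libraries. This drop lay mainly in the light-strand tRNAs, at 0.0181, 0.0181 and 0.0146% against 0.0366, 0.0353 and 0.0356% with DMSO. The heavy-strand tRNAs were at 0.00640, 0.00879 and 0.0133% against 0.0128, 0.00926 and 0.0125%, with libraries A and B below DMSO and C above it. For each 1000 mRNA counts, HCC38 held 6.43, 6.51 and 4.35 tRNA counts with EZH2i+AKTi, against 10.9, 11.1 and 10.6 with DMSO. HCC1937 held 2.78, 2.96 and 3.08 with EZH2i+AKTi, against 3.61, 3.24 and 3.30 with DMSO. HCC1395 held 5.15, 5.21 and 5.18 with EZH2i, 7.01, 6.99 and 6.89 with AKTi and 4.66, 5.80 and 4.96 with the combination. Its DMSO libraries held 7.21, 6.86 and 6.51. Thus this ratio was below DMSO without overlap with EZH2i+AKTi in every line and with EZH2i, while AKTi libraries overlapped. The tRNA share itself was below DMSO without overlap only in HCC38. In HCC1937 that share was 0.0104, 0.0104 and 0.0138% with EZH2i+AKTi, against 0.00969, 0.0116 and 0.0112% with DMSO, with overlap. In HCC1395 the tRNA share was 0.0244, 0.0213 and 0.0215% with EZH2i, 0.0366, 0.0355 and 0.0335 with AKTi and 0.0264, 0.0332 and 0.0278 with the combination, against 0.0260, 0.0238 and 0.0234% with DMSO. AKTi and combination libraries lay above DMSO there, and EZH2i libraries overlapped with them.

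**Figure D1:**
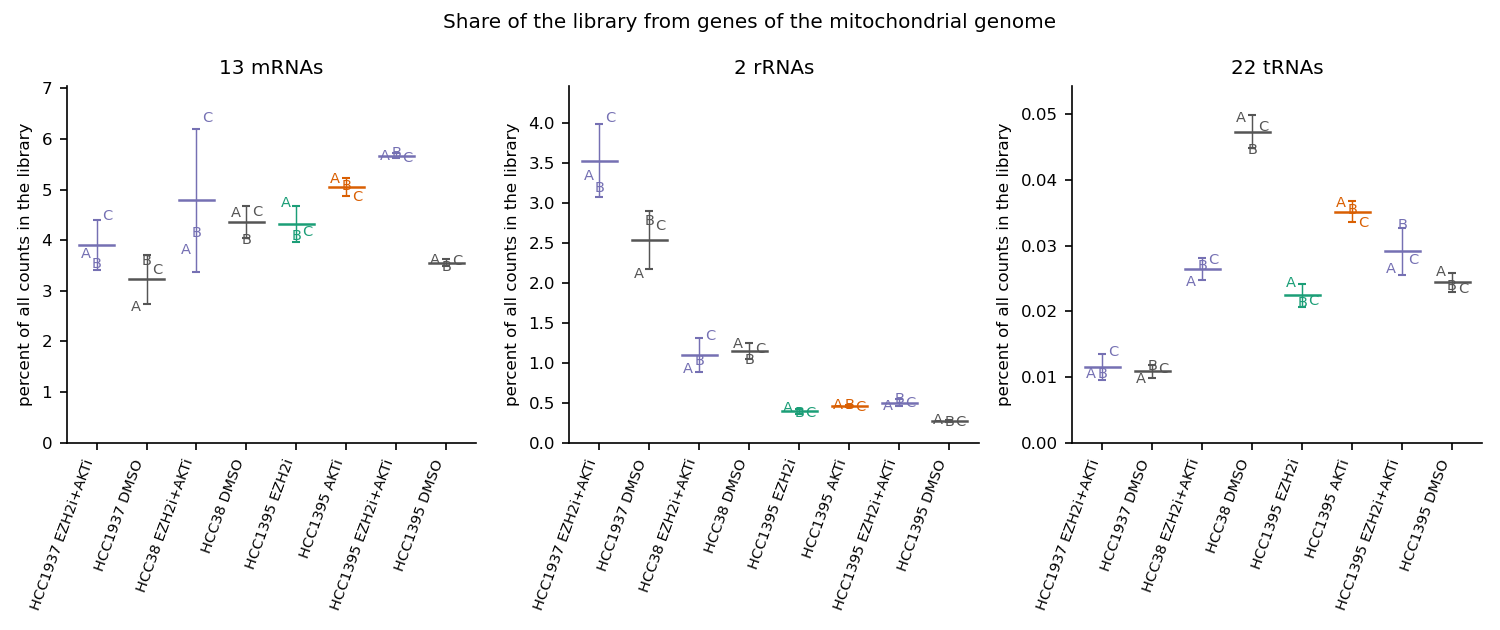
Summed counts of the 13 mitochondrial mRNAs, the 2 rRNAs and the tRNAs as percent of all counts in each library (y axes), by group (x axis); letters mark libraries A to C, lines the mean and bars the SD of 3 libraries. The mRNA share is above DMSO in all treated HCC1395 libraries, while the tRNA share of HCC38 with EZH2i+AKTi lies between 0.0245% and 0.0279%, below its DMSO libraries.

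The response of the mRNAs in HCC1395 addresses what each inhibitor, and both, did to mitochondrial transcripts. Of the 13 mRNAs, 10 rose with EZH2i, 11 with AKTi and 12 with the combination, and none was lower in any of these comparisons (edgeR quasi-likelihood test, Benjamini-Hochberg adjusted p under 0.05 over 18074 genes, here named called). Of all genes tested, 18.8% were called higher with EZH2i, 27.1% with AKTi and 32.5% with the combination, and 33.7%, 49.7% and 60.0% in either direction. The median log2 change of the 13 mRNAs was 0.31 with EZH2i, beside 0.02 over all genes tested. It was 0.46 with AKTi, beside 0.06, and 0.65 with the combination, beside 0.07. These 3 comparisons share the same 3 DMSO libraries. The uncalled mRNAs were MT-ATP8, MT-CO3 and MT-ND3 with EZH2i, MT-ATP8 and MT-ND3 with AKTi, and MT-ND3 with the combination.

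Complex I mRNAs made up 7 of the 13. MT-ND6, the light-strand complex I gene at chrM:14149-14673, had 626, 541 and 526 CPM with EZH2i, 572, 607 and 553 with AKTi and 714, 724 and 700.2 with the combination, against 384, 394 and 358 CPM with DMSO. Each treated library exceeded each DMSO library. For EZH2i, AKTi and the combination in that order, the log2 changes were 0.54 ± 0.06, 0.62 ± 0.06 and 0.89 ± 0.06 (SE), with adjusted p of 1.49e-06, 7.68e-08 and 2.35e-10. For MT-ND6, reads of the opposite strand cannot be told apart, and how fully poly-T selection captured its mRNA was not tested. MT-ND4, a proton-pumping subunit, had 7663, 6539.7 and 6686 CPM with EZH2i, 8724, 8627 and 8378 with AKTi and 9874, 9439 and 9683 with the combination, against 5354, 5389 and 5598 CPM with DMSO. Again no treated library reached down to the DMSO libraries, with log2 changes of 0.31 ± 0.06, 0.67 ± 0.06 and 0.80 ± 0.06 (SE) and adjusted p of 0.0003, 8.09e-09 and 2.86e-10 in the same order. MT-ND1, which lies where the membrane arm meets the quinone site, had 1972, 1779 and 1859 CPM with EZH2i, 2059, 1953 and 1862 with AKTi and 2166, 2146 and 2168 with the combination, against 1445, 1406 and 1542 CPM with DMSO. Its groups did not overlap with DMSO either, and its log2 changes were 0.31 ± 0.06, 0.43 ± 0.06 and 0.54 ± 0.06 (SE), with adjusted p of 0.000188, 1.69e-06 and 5.32e-08.

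The other complex I mRNAs differed in how firmly they moved. MT-ND2 and MT-ND5, both membrane-arm subunits, rose in all 3 treatments, with log2 changes of 0.35, 0.46 and 0.65 for MT-ND2 and 0.48, 0.58 and 0.76 for MT-ND5. MT-ND4L rose by 0.26, 0.57 and 0.63, and reads over the bases it shares with MT-ND4 cannot be assigned to one of the genes. MT-ND3 was not called in any of them. It had 502, 528 and 419 CPM with EZH2i, 575, 607 and 494 with AKTi and 546, 722 and 468 with the combination, against 419, 436 and 424 CPM with DMSO. All combination libraries of MT-ND3 were above the DMSO libraries, but they were spread widely and the log2 change of 0.42 ± 0.17 had an adjusted p of 0.0552.

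MT-CYB, the cytochrome b of complex III, had 1958, 1677 and 1742 CPM with EZH2i, 2007, 1874 and 1794 with AKTi and 2258, 2199 and 2147 with the combination, against 1339.9, 1302 and 1384 CPM with DMSO. No treated library overlapped with DMSO, and the log2 changes were 0.38 ± 0.06, 0.51 ± 0.06 and 0.69 ± 0.06 (SE), with adjusted p of 6.92e-05, 7.08e-07 and 5.56e-09. Of complex IV, MT-CO1, the catalytic subunit that holds the oxygen-reducing site and the most abundant mRNA by counts in HCC1395, had 16467, 14215 and 14466 CPM with EZH2i, 19285, 19186 and 18106 with AKTi and 21171, 21205 and 21214 with the combination, against 13027, 12529 and 12965 CPM with DMSO. The groups did not overlap with DMSO, and its log2 changes were 0.19 ± 0.06, 0.57 ± 0.06 and 0.70 ± 0.06 (SE), with adjusted p of 0.0207, 1.26e-07 and 3.67e-09. MT-CO2, which takes electrons from cytochrome c, rose by 0.22, 0.46 and 0.63 on the log2 scale. MT-CO3 had 4587, 4005 and 4036 CPM with EZH2i, 4975, 4826 and 4613 with AKTi and 4795, 5529 and 4712 with the combination, against 4305, 3717 and 3799 CPM with DMSO. Its EZH2i libraries overlapped with DMSO and its log2 changes were 0.06 ± 0.08, 0.30 ± 0.08 and 0.33 ± 0.08 (SE), with adjusted p of 0.651, 0.0052 and 0.00227.

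Of complex V, MT-ATP6, the subunit that carries protons past the rotor, had 3213, 2583 and 2745 CPM with EZH2i, 2945, 2776 and 2672 with AKTi and 3274, 3055 and 3148 with the combination, against 2163, 2215 and 2247 CPM with DMSO. Its treated libraries were all above DMSO, with log2 changes of 0.33 ± 0.07, 0.36 ± 0.07 and 0.49 ± 0.07 (SE) and adjusted p of 0.000722, 0.000158 and 2.36e-06. MT-ATP8, a small subunit of the stator whose shared bases with MT-ATP6 limit what can be counted to it alone, had 19.5, 16.5 and 15.1 CPM with EZH2i, 21.2, 16.1 and 17.0 with AKTi and 19.4, 20.4 and 32.8 with the combination, against 12.98, 14.6 and 16.4 CPM with DMSO. Only its combination libraries cleared the DMSO libraries, and its log2 change there was 0.68 ± 0.21, with an adjusted p of 0.0164. Without DMSO library A that adjusted p was 0.0577. Leaving out each library in turn kept all 11 AKTi calls, 11 of the 12 combination calls and 7 of the 10 EZH2i calls. The EZH2i calls of MT-CO1, MT-CO2 and MT-ND4L were lost at least once, for instance MT-CO1 without EZH2i library A, with an adjusted p of 0.446. EZH2i library A had the highest mRNA share of its group.

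**Figure D2:**
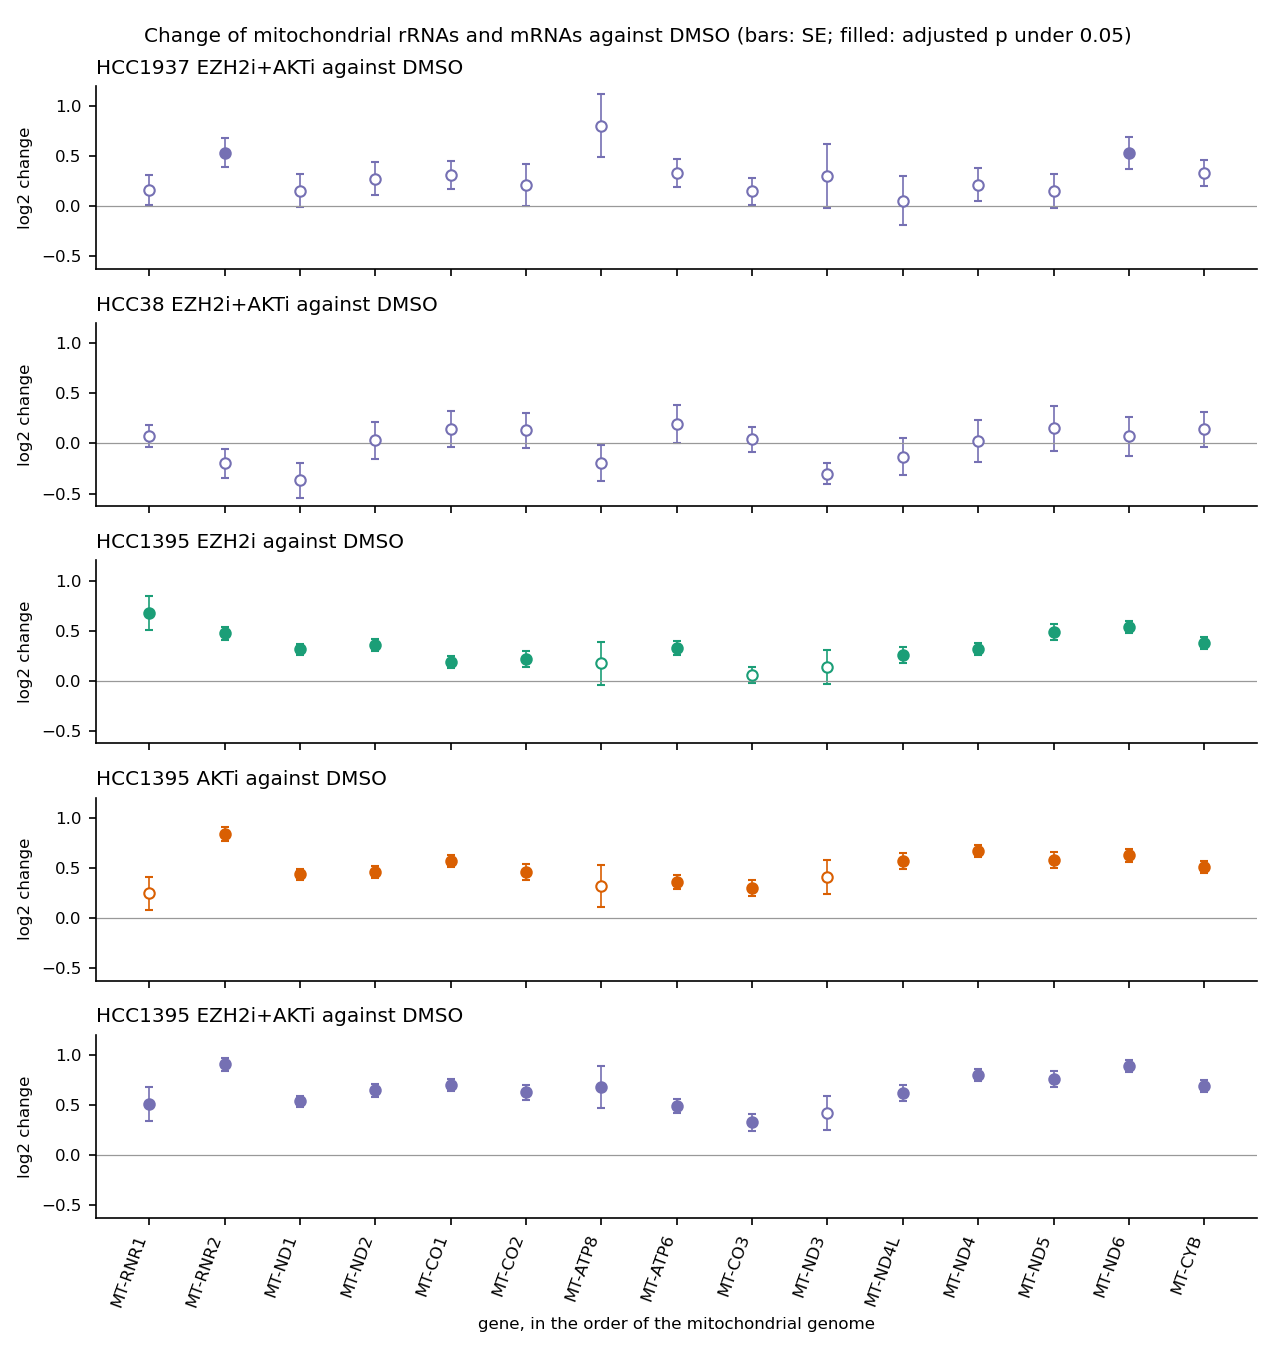
Log2 change of the 2 mitochondrial rRNAs and 13 mRNAs against DMSO (y axis) in genome order (x axis), in 5 panels, 1 per comparison; bars are the standard error and filled points have an adjusted p under 0.05 in edgeR. In HCC1395 all points lie above 0 in each of the 3 treatments, while in HCC38 no mRNA is filled.

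The combination was also set directly against each single agent. Against EZH2i, 11 of 13 mRNAs were higher and none lower, beside 23.9% of all genes called higher and 49.0% in either direction, with a median log2 difference of 0.31 beside 0.01 over all genes. MT-CO1 was higher by 0.51 ± 0.06 (SE, adjusted p = 5.93e-07) and MT-ND4 by 0.49 ± 0.06 (adjusted p = 7.04e-07). Against AKTi, 3 of 13 were higher and none lower, beside 17.0% of all genes called higher and 35.5% in either direction, with a median of 0.14 beside -0.01. These were MT-ND2 at 0.19 ± 0.06 (adjusted p = 0.0205), MT-ND6 at 0.27 ± 0.06 (adjusted p = 0.00268) and MT-CYB at 0.18 ± 0.06 (adjusted p = 0.0277). The MT-ND6 call held whichever library was left out, under the limits of strand and capture given for it above. The count of 3 became 1 without AKTi library B or C, and 5 without combination library B.

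Whether both agents together gave more or less than the sum of each alone was tested as an interaction, the combination change less the sum of the single-agent changes. No mRNA passed in edgeR, beside 1.58% of all genes called in either direction, and DESeq2 called none. At an unadjusted p under 0.05, 5 were lower and none higher, and with no filter on low counts 1 was called lower. Of the 13 estimates 12 were negative, with a median of -0.18 beside -0.04 over all genes. MT-RNR2 was the single member called, at -0.41 ± 0.09 (adjusted p = 0.0315), and that call was lost in 7 of the 12 fits that left out 1 library. Without combination library C, 2 mRNAs were called.

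Within the mRNA pool, the shares of single genes moved little in HCC1395, and some did so without overlap. These percentages of the summed counts of the 13 mRNAs do not depend on how libraries are scaled, and were given no test. MT-ND6 made up 1.32, 1.32 and 1.27% of mRNA counts with EZH2i, 1.098, 1.197 and 1.14 with AKTi and 1.26, 1.27 and 1.25 with the combination, against 1.06, 1.13 and 0.997% with DMSO. EZH2i and combination libraries lay above DMSO, and AKTi libraries overlapped. MT-CO3 made up 9.69, 9.79 and 9.71% with EZH2i, 9.54, 9.52 and 9.49 with AKTi and 8.46, 9.66 and 8.39 with the combination, against 11.9, 10.7 and 10.6% with DMSO. All treated libraries were below DMSO. MT-ND4 made up 16.2, 16.0 and 16.1% with EZH2i, 16.7, 17.0 and 17.2 with AKTi and 17.4, 16.5 and 17.2 with the combination, against 14.8, 15.5 and 15.6% with DMSO, with all treated libraries above DMSO.

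In HCC38 edgeR called no mitochondrial mRNA with EZH2i+AKTi, beside 31.4% of all genes called in either direction. DESeq2 called 1 lower, edgeR with no filter on low counts 2 lower, and 1 was lower at an unadjusted p under 0.05 in edgeR. In edgeR the median log2 change was 0.04 beside -0.01 over all genes. Library C was the highest of the 3 treated libraries for all 13 mRNAs. MT-ND1 had 3244, 3497 and 5429 CPM with EZH2i+AKTi, against 5168, 4547 and 5067 CPM with DMSO. Libraries A and B were below all DMSO libraries and C was above all of them, and the fit gave -0.37 ± 0.18 (SE, adjusted p = 0.137). Without library C, 6 mRNAs were called lower. MT-ND1 was then at -0.62 (adjusted p = 3.24e-06), MT-ND4 at -0.30 (adjusted p = 0.0056) and MT-ND3 at -0.35 (adjusted p = 0.00244). The others were MT-ATP8 at -0.35, MT-ND2 at -0.24 and MT-ND6 at -0.22.

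One feature of HCC38 was seen in all 3 treated libraries. As a share of mRNA counts, MT-ND1 made up 8.51, 8.45 and 8.48% with EZH2i+AKTi, against 11.4, 11.4 and 11.1% with DMSO. The treated libraries were close to each other, library C included, and all below DMSO. For each count of MT-ND2, the next mRNA along the genome, there were 1.32, 1.26 and 1.25 MT-ND1 counts with EZH2i+AKTi, against 1.67, 1.68 and 1.66 with DMSO. This ratio averaged 0.604 with EZH2i+AKTi and 0.661 with DMSO in HCC1937, and 0.903 with EZH2i+AKTi and 0.973 with DMSO in HCC1395. It was lower without overlap in HCC1937 and overlapped with DMSO in HCC1395. The MT-ND1 share overlapped with DMSO in HCC1937. In HCC1395 that share was 3.95, 3.85 and 3.83% with AKTi and 3.82, 3.75 and 3.86% with the combination. Both lay below the DMSO libraries of HCC1395, at 4.003, 4.04 and 4.30%, while EZH2i libraries overlapped with them. Shares of MT-CO1, MT-ATP6 and MT-CYB were above DMSO in all treated HCC38 libraries.

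In HCC1937, 1 of 13 mRNAs was higher with EZH2i+AKTi and none lower, beside 30.5% of all genes called higher and 59.3% in either direction. The median log2 change of the 13 was 0.28 beside 0.03 over all genes. The called gene was MT-ND6, with 687, 753 and 920 CPM with EZH2i+AKTi, against 458, 598 and 559 CPM with DMSO. These groups did not overlap, and the log2 change was 0.53 ± 0.16 (SE, adjusted p = 0.033). As a share of mRNA counts, MT-ND6 was 1.84, 2.14 and 2.06% with EZH2i+AKTi, against 1.71, 1.66 and 1.64% with DMSO, also without overlap. The limits of strand and capture given above for this light-strand gene apply here too. MT-CO1 had 11394, 10670 and 12637 CPM with EZH2i+AKTi, against 7415, 10229 and 9909.6 CPM with DMSO. The treated libraries were all above DMSO, of which A was the lowest, and MT-CO1 was not called at 0.31 ± 0.14 (adjusted p = 0.097). Without DMSO library A or C, no mRNA was called, with adjusted p for MT-ND6 of 0.0929 and 0.085. Without DMSO library B, 4 were called, and without EZH2i+AKTi library A or B, 2.

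Whether the lines responded differently to EZH2i+AKTi was tested in 1 fit of all 24 libraries and 20697 genes. HCC38 less HCC1395 gave lower responses for 3 of 13 mRNAs and higher for none, beside 15.6% of all genes called lower and 33.0% in either direction, with all 13 estimates negative and a median of -0.59 beside -0.02 over all genes. These were MT-ND1 at -0.88 ± 0.22 (adjusted p = 0.00407), MT-ND6 at -0.80 ± 0.25 (adjusted p = 0.0175) and MT-ND4 at -0.76 ± 0.26 (adjusted p = 0.0316). Without HCC38 EZH2i+AKTi library C the count was 11. HCC38 less HCC1937 gave 1 lower, MT-ATP8 at -0.98 ± 0.36 (adjusted p = 0.0463), beside 14.3% of all genes called lower and 32.0% in either direction, and 8 without the same library. It was 2 without HCC1937 EZH2i+AKTi library A and 0 without each of the other 10 libraries of those lines. HCC1937 less HCC1395 gave none in either direction, beside 23.3% of all genes, with a median of -0.38 beside -0.01, and 2 without HCC1937 EZH2i+AKTi library C. DESeq2 also called none there, and 2 were lower at an unadjusted p under 0.05 in edgeR. With no filter on low counts, 9 of the 13 were called lower.

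The lines differed in their mitochondrial RNAs in DMSO as well. To compare genes, levels were taken as CPM per kilobase of gene length, averaged over 3 DMSO libraries. Among the mRNAs of HCC1937, MT-CO2 was highest at 6843 ± 1007 and MT-CO1 next at 5956 ± 999 (SD). In each library MT-CO2 was above MT-CO1, at 5727, 7685 and 7116 against 4808, 6634 and 6426.5. In HCC38 the order began with MT-CO1 at 7771 ± 661, MT-CO3 at 6406 ± 205, MT-CO2 at 5442 ± 79.1 and MT-ND1 at 5154 ± 348. In HCC1395 it began with MT-CO1 at 8327 ± 176, MT-CO2 at 5869 ± 324 and MT-CO3 at 5026 ± 406, all 3 of complex IV, followed by MT-ND4 at 3953 ± 95.9. Of the mRNA entries, MT-ATP8 had the lowest value in every line, at 47.9, 84.1 and 71.0 CPM per kilobase in HCC1937, HCC38 and HCC1395. The 46 bases it shares with MT-ATP6 limit what can be counted to it alone. Its value therefore ranks counted reads, and a low level of its RNA cannot be read from it. Next above it came MT-ND3 at 825 in HCC1937, and MT-ND5 at 1173 in HCC38 and 662 in HCC1395.

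**Figure D3:**
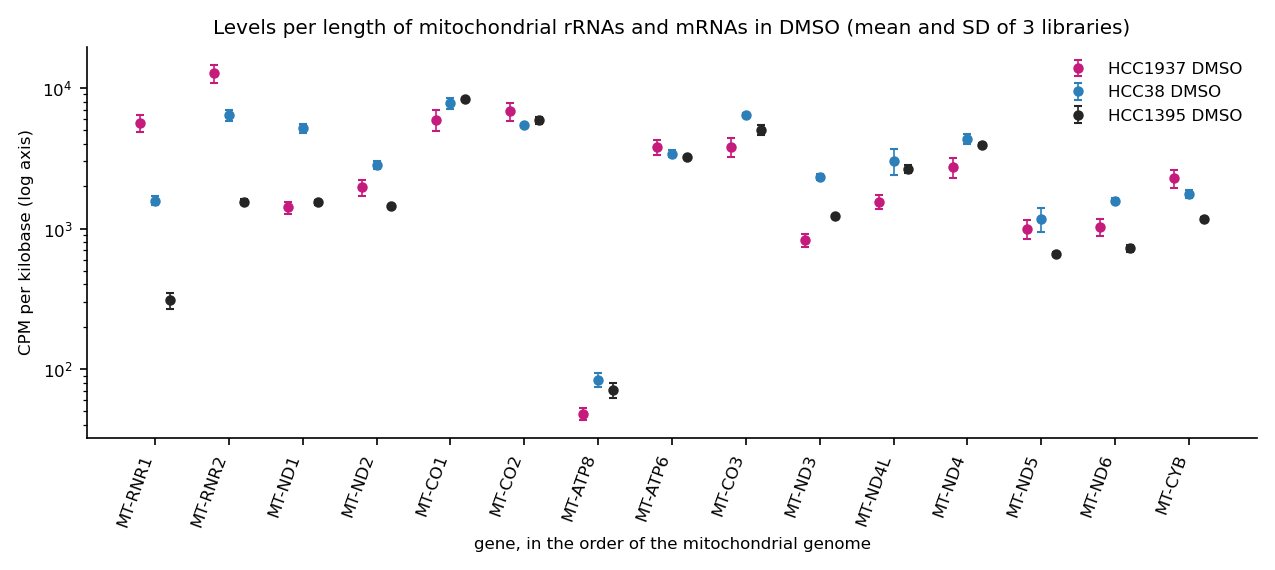
Levels of the mitochondrial rRNAs and mRNAs in DMSO libraries as CPM per kilobase on a log axis (y axis), in genome order (x axis), for HCC1937, HCC38 and HCC1395; points are means and bars the SD of 3 libraries. The lines lie far apart at MT-RNR1 and MT-RNR2 and at MT-ND1, where HCC38 is above both other lines.

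MT-ND1 set HCC38 apart. It had 1215, 1478 and 1361 CPM in HCC1937, 5168, 4547 and 5067 in HCC38 and 1445, 1406 and 1542 in HCC1395 with DMSO. Every HCC38 library was above every library of the other lines, with log2 differences of 1.72 ± 0.16 for HCC38 less HCC1395 (adjusted p = 6.26e-09) and -1.88 ± 0.16 for HCC1937 less HCC38 (adjusted p = 1.86e-09). MT-ND3, a small complex I subunit, went the same way, at 282, 316 and 258 CPM in HCC1937, 798, 841 and 767 in HCC38 and 419, 436 and 424 in HCC1395. HCC38 was again above both lines without overlap, with log2 differences of 0.88 ± 0.21 for HCC38 less HCC1395 (adjusted p = 0.00124) and -1.51 ± 0.22 for HCC1937 less HCC38 (adjusted p = 6.22e-06). In all, 7 of 13 mRNAs were higher in HCC38 than in HCC1395 and none lower, beside 38.2% of all genes called higher and 74.7% in either direction, with a median of 0.32 beside 0.02 over all genes. The other 5 were MT-ND2, MT-CO3, MT-ND5, MT-ND6 and MT-CYB.

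Against each other line, HCC1937 had mRNAs called higher and mRNAs called lower. In both comparisons the number called in either direction was near the share over all genes. Against HCC1395, 4 of 13 mRNAs were higher and 6 lower, beside 37.3% and 35.7% of all genes (73.0% in either direction), with a median log2 difference of -0.16 beside 0.01. MT-CYB was higher by 0.91 ± 0.15 (SE, adjusted p = 1.76e-05), and so were MT-ND2, MT-ND5 and MT-ND6. MT-CO1 was lower, at -0.53 ± 0.15 (adjusted p = 0.00428), and so were MT-ATP8, MT-CO3, MT-ND3, MT-ND4L and MT-ND4. Only MT-CYB, MT-CO1, MT-CO3 and MT-ND4L kept their calls whichever library was left out. The count of 10 was 5 without HCC1937 DMSO library C and 6 without HCC1395 DMSO library C. Against HCC38, 1 of 13 was higher and 9 lower, beside 36.2% and 35.6% of all genes (71.9% in either direction), with a median of -0.64 beside 0.00. The higher one was MT-CYB at 0.35 ± 0.15 (adjusted p = 0.0396). That call was lost without any 1 HCC38 DMSO library and without HCC1937 DMSO library B or C. For each count of MT-CO1, there were 0.290, 0.279 and 0.283 counts of MT-CYB in HCC1937, 0.166, 0.172 and 0.166 in HCC38 and 0.103, 0.104 and 0.107 in HCC1395, with no overlap between lines.

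The rRNAs differed between all 3 lines, highest in HCC1937 and lowest in HCC1395. MT-RNR1, the small-subunit rRNA at chrM:648-1601, had 4543, 5897 and 5768 CPM in HCC1937, 1634, 1441 and 1451 in HCC38 and 338, 274 and 271 in HCC1395 with DMSO. MT-RNR2, the large-subunit rRNA at chrM:1671-3229, had 16580, 21777 and 21353 CPM in HCC1937, 10684, 8918 and 10296 in HCC38 and 2527, 2367 and 2351 in HCC1395. No libraries overlapped between lines for either rRNA. HCC1937 less HCC1395 was 4.15 ± 0.18 for MT-RNR1 (adjusted p = 1.84e-14) and 2.99 ± 0.14 for MT-RNR2 (adjusted p = 1.87e-14). HCC38 less HCC1395 was 2.32 ± 0.16 (adjusted p = 7.07e-11) and 2.01 ± 0.14 (adjusted p = 1.18e-11) in the same order, and HCC1937 less HCC38 1.82 ± 0.16 (adjusted p = 2.81e-09) and 0.98 ± 0.14 (adjusted p = 1.09e-06). For each mRNA count there were 0.784, 0.263 and 0.0762 rRNA counts on average in DMSO libraries of HCC1937, HCC38 and HCC1395. Since poly-T selection captures these rRNAs only in part, a difference in rRNA level and one in capture cannot be told apart here.

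With the inhibitors, the rRNAs moved apart from each other in HCC1395. MT-RNR2 had 3735, 3302 and 3309 CPM with EZH2i, 4331, 4401 and 4083 with AKTi and 4277, 4918 and 4591 with the combination, against 2527, 2367 and 2351 CPM with DMSO. All treated libraries were above DMSO, and its log2 changes were 0.47 ± 0.07, 0.84 ± 0.07 and 0.91 ± 0.07 (SE) for EZH2i, AKTi and the combination, with adjusted p of 1.28e-05, 2.05e-09 and 3.42e-10. MT-RNR1 had 553, 433 and 468 CPM with EZH2i, 334, 338 and 367 with AKTi and 374, 525 and 377 with the combination, against 338, 274 and 271 CPM with DMSO. EZH2i and combination libraries were above DMSO and AKTi libraries overlapped with it, with log2 changes of 0.68 ± 0.17, 0.25 ± 0.17 and 0.51 ± 0.17 (SE) and adjusted p of 0.0121, 0.254 and 0.0245. Thus MT-RNR1 passed the test with EZH2i and the combination, and the combination call was lost without DMSO library B or C or combination library B. For each count of MT-RNR2 there were 0.148, 0.131 and 0.141 MT-RNR1 counts with EZH2i, 0.0770, 0.0767 and 0.0900 with AKTi and 0.0874, 0.107 and 0.0821 with the combination, against 0.134, 0.116 and 0.115 with DMSO.

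That ratio was lower than DMSO in all AKTi and combination libraries of HCC1395 and overlapped with DMSO under EZH2i. In HCC1937 it was 0.210, 0.209 and 0.210 with EZH2i+AKTi, against 0.274, 0.271 and 0.270 with DMSO, lower without overlap. In HCC38 it went the other way, with 0.194, 0.193 and 0.167 with EZH2i+AKTi, against 0.153, 0.162 and 0.141 with DMSO. MT-RNR2 itself had 27624, 26418 and 33530 CPM with EZH2i+AKTi in HCC1937, against 16580, 21777 and 21353 CPM with DMSO. It rose there without overlap, by 0.54 ± 0.15 (SE, adjusted p = 0.0184), and the call held whichever library was left out. In HCC38 the log2 change of MT-RNR2 was -0.20 ± 0.14 (adjusted p = 0.329), and -0.36 without library C (adjusted p = 0.002). The response of MT-RNR2 in HCC38 was lower than that in HCC1395 by 1.08 ± 0.19 on the log2 scale (adjusted p = 0.000127) and lower than that in HCC1937 by 0.70 ± 0.19 (adjusted p = 0.00668). Without library C these differences were -1.28 and -0.90.

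Few tRNAs carried most tRNA counts, and their order differed between the lines. With DMSO, MT-TN held 28.996 ± 1.37% of tRNA counts in HCC1937, 35.9 ± 2.95% in HCC38 and 37.0 ± 2.88% in HCC1395 (SD, n = 3 each). MT-TC held 22.7 ± 4.23% in HCC1937, 27.9 ± 1.32% in HCC38 and 32.4 ± 2.20% in HCC1395. MT-TP, for proline, held 22.9 ± 3.78% in HCC1937, level with MT-TC within the spread, 4.05 ± 0.0229% in HCC38 and 15.1 ± 0.941% in HCC1395. MT-TL1 came next after MT-TC in HCC38, at 16.4 ± 2.31%, and held 3.21 ± 0.193% in HCC1937 and 4.74 ± 0.223% in HCC1395. The 8 light-strand tRNAs together held 86.7 ± 0.288% in HCC1937, 75.8 ± 3.02% in HCC38 and 92.6 ± 0.343% in HCC1395. The light-strand tRNAs MT-TN, MT-TC and MT-TY lie next to each other in a gap between MT-ND2 and MT-CO1, and the sequences above show the first 2. MT-TF, MT-TA and MT-TS2 passed the filter on low counts in no fit, with 47, 71 and 73 counts in all libraries together. MT-TL2 passed only in the fit of all lines. Statements on tRNAs below cover those that passed the filter in the comparison at hand, 18 in HCC1395, 16 in HCC38 and 16 in HCC1937.

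In HCC38, 8 of 16 tRNAs were lower with EZH2i+AKTi and none higher, beside 14.5% of all genes called lower, with a median of -0.54 beside -0.01 over all genes. MT-TC had 61.2, 56.4 and 24.5 CPM with EZH2i+AKTi, against 135, 131 and 129.8 CPM with DMSO. MT-TN had 87.7, 88.7 and 74.0 CPM with EZH2i+AKTi, against 169, 175 and 164 CPM with DMSO. All treated libraries were below all DMSO libraries for both, and library C, the highest for every mRNA, was the lowest for MT-TN, MT-TC and MT-TY. MT-TC fell by 1.57 ± 0.26 on the log2 scale (SE, adjusted p = 0.00141), MT-TN by 1.12 ± 0.10 (adjusted p = 2.99e-05) and MT-TY by 1.21 ± 0.16 (adjusted p = 0.000413). Without library C they fell by 1.23, 1.01 and 1.04 (adjusted p = 3e-10, 2.51e-09 and 1.06e-06). These 3 calls held whichever library was left out, while the other 5, of MT-TV, MT-TW, MT-TS1, MT-TD and MT-TT, did not. The count was 3 without DMSO library A, 4 without EZH2i+AKTi library B and 5 without DMSO library C, and 11 without EZH2i+AKTi library C. MT-TN, MT-TC and MT-TY are light-strand genes, for which reads of the opposite strand cannot be told apart. For MT-TL1 the groups overlapped, with 46.1, 61.8 and 98.1 CPM with EZH2i+AKTi, against 87.7, 61.5 and 85.7 CPM with DMSO.

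**Figure D4:**
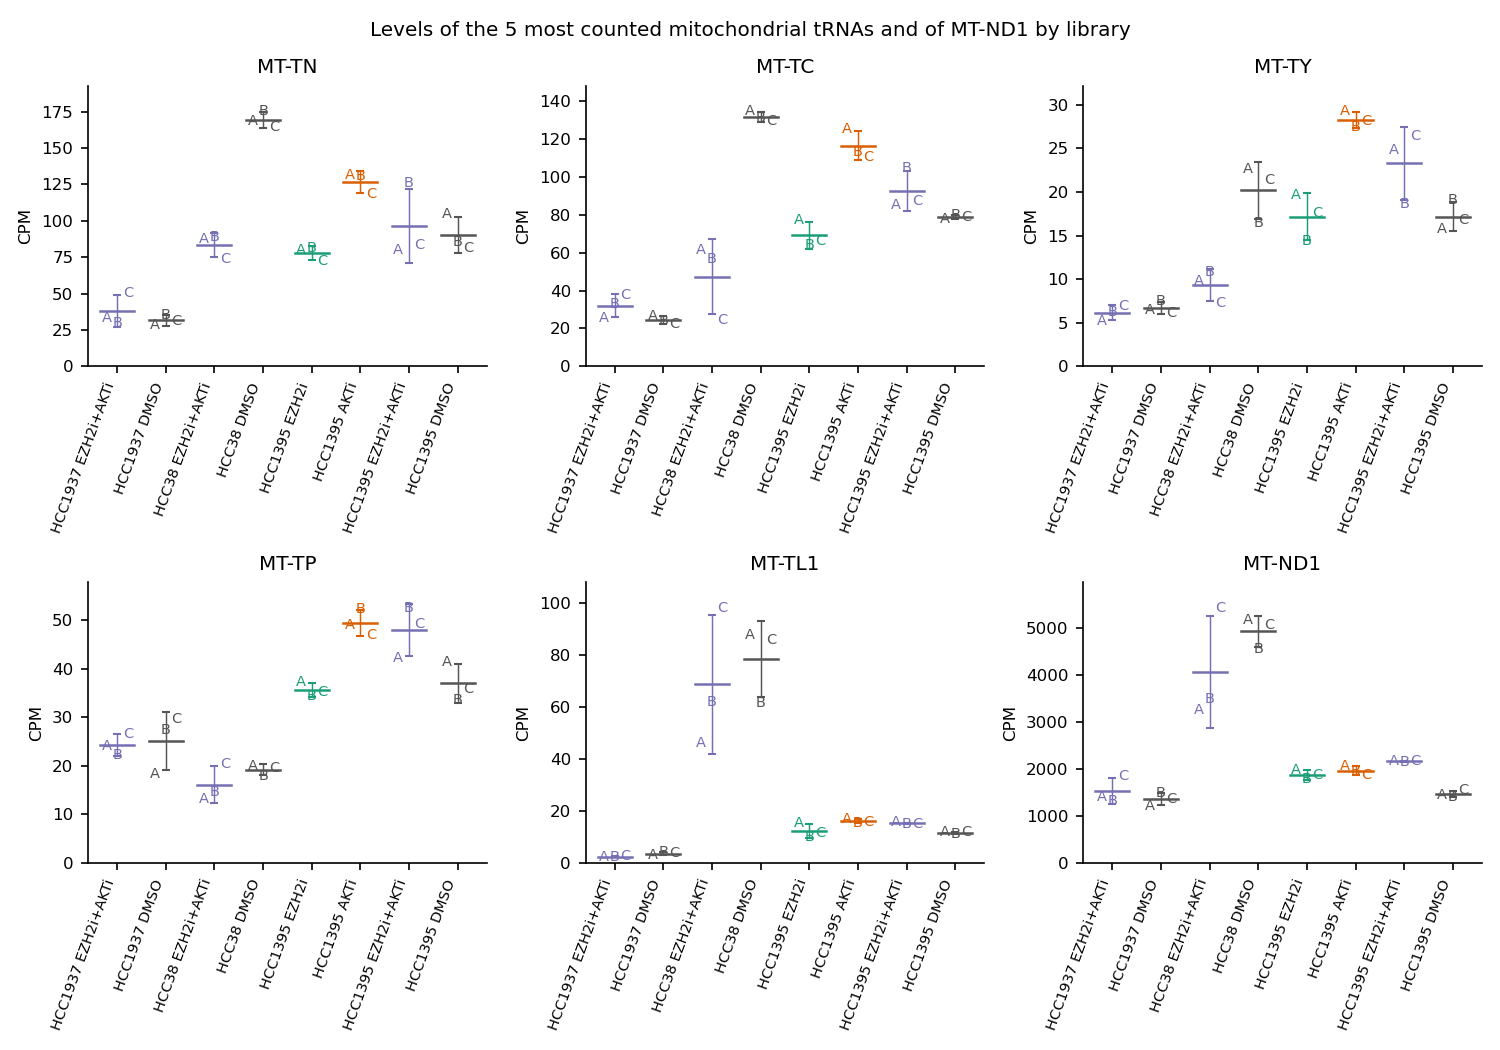
CPM (y axes) of the tRNAs MT-TN, MT-TC, MT-TY, MT-TP and MT-TL1, and of the mRNA MT-ND1 for comparison, by group (x axis); letters mark libraries A to C, lines the mean and bars the SD of 3 libraries. MT-TN in HCC38 lies between 74.0 and 88.7 CPM with EZH2i+AKTi, below all of its DMSO libraries.

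In HCC1395 all tRNAs called against DMSO were higher. EZH2i gave 2 higher of 18, AKTi 10 and the combination 12, and none was lower. All 18 estimates were positive with AKTi and with the combination, while 7 of 18 were negative with EZH2i. At an unadjusted p under 0.05 in edgeR, EZH2i had 3 higher and 1 lower. The EZH2i fits that left out 1 library called at most 1 lower. The background of genes called higher, given above, was 18.8%, 27.1% and 32.5% for the same treatments, so that the EZH2i share was no larger than it. MT-TC had 77.2, 64.1 and 65.9 CPM with EZH2i, 125, 113 and 111 with AKTi and 85.3, 105 and 87.4 with the combination, against 77.5, 79.9 and 78.8 CPM with DMSO. AKTi libraries were above DMSO, at 0.58 ± 0.09 (adjusted p = 0.00011), while the combination gave 0.21 ± 0.09 (adjusted p = 0.0627) and EZH2i -0.23 ± 0.09 (adjusted p = 0.0767). MT-TN had 79.6, 81.2 and 72.3 CPM with EZH2i, 132, 131 and 118 with AKTi and 79.8, 126 and 83.3 with the combination, against 105, 85.5 and 81.3 CPM with DMSO, and it was called in none of these comparisons. MT-TY rose with AKTi, by 0.74 ± 0.12 (adjusted p = 0.000121), and with the combination, by 0.41 ± 0.12 (adjusted p = 0.00931).

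Other tRNAs of HCC1395 were scarcer. MT-TL1 had 15.1, 9.81 and 11.3 CPM with EZH2i, 16.8, 15.4 and 15.6 with AKTi and 15.5, 15.0 and 14.9 with the combination, against 11.9, 11.1 and 11.7 CPM with DMSO. Its log2 changes were 0.01 ± 0.12, 0.48 ± 0.11 and 0.37 ± 0.11 (SE) and its adjusted p 0.945, 0.00167 and 0.00903, so it rose with AKTi and with the combination. MT-TK, for lysine, had 0.848, 0.360 and 0.406 CPM with EZH2i, 0.857, 0.613 and 0.291 with AKTi and 1.12, 0.880 and 1.02 with the combination, against 0.208, 0.308 and 0.326 CPM with DMSO. Its log2 change with the combination was 1.81 ± 0.40 (adjusted p = 0.000574), at less than about 1 CPM in most libraries. MT-TQ, for glutamine, rose with EZH2i by 1.05 ± 0.29 (adjusted p = 0.00802), and MT-TE, for glutamate, by 0.75 ± 0.23 (adjusted p = 0.0149). Set directly against AKTi, the combination had lower MT-TC at -0.37 ± 0.09 (adjusted p = 0.00632) and lower MT-TY at -0.33 ± 0.12 (adjusted p = 0.042), 2 of 18 beside 18.6% of all genes, and against EZH2i it had 9 higher of 18, beside 23.9%. The count of 2 was 1 without combination library A or any 1 AKTi library, and the count of 9 was 5 without EZH2i library B. Leaving out single libraries kept 6 of the 10 AKTi calls, 7 of the 12 combination calls and 1 of the 2 EZH2i calls, that of MT-TQ. The EZH2i count of higher tRNAs was 1 without DMSO library A or C, or without EZH2i library A.

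In HCC1937, 1 tRNA was higher and 4 lower of 16, beside 30.5% and 28.8% of all genes. MT-TL1 had 2.03, 2.34 and 2.52 CPM with EZH2i+AKTi, against 2.93, 3.97 and 3.59 CPM with DMSO, lower without overlap by 0.62 ± 0.16 on the log2 scale (SE, adjusted p = 0.00437). MT-TV, for valine, the tRNA between MT-RNR1 and MT-RNR2, had 3.77, 2.80 and 3.77 CPM with EZH2i+AKTi, against 4.83, 6.55 and 6.25 CPM with DMSO, and fell by 0.79 ± 0.16 (adjusted p = 0.00047). Both calls held whichever library was left out. Those of MT-TQ and MT-TM, lower, and of MT-TH, higher, did not. The count of lower tRNAs was 2 without DMSO library B or C or EZH2i+AKTi library B, and 2 tRNAs were called higher without EZH2i+AKTi library A and none without any other library. MT-TN and MT-TC were not called in HCC1937, at 0.26 ± 0.25 (adjusted p = 0.43) and 0.38 ± 0.15 (adjusted p = 0.0584).

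The difference between line responses was itself tested for the tRNAs. HCC38 less HCC1937 was -1.93 ± 0.32 for MT-TC (adjusted p = 0.000159) and -1.35 ± 0.27 for MT-TN (adjusted p = 0.00093), and HCC38 less HCC1395 was -1.76 ± 0.31 (adjusted p = 0.000262) and -1.17 ± 0.27 (adjusted p = 0.00229). Without HCC38 EZH2i+AKTi library C, the differences from HCC1937 were -1.62 for MT-TC and -1.28 for MT-TN, and those from HCC1395 were -1.46 and -1.103, each still called. In all, 11 of 19 tRNAs had a lower response in HCC38 than in HCC1395, beside 15.6% of all genes, and none a higher one. With DMSO, tRNA levels also differed between lines. MT-TC had 26.7, 23.9 and 22.5 CPM in HCC1937, 135, 131 and 129.8 in HCC38 and 77.5, 79.9 and 78.8 in HCC1395. HCC38 was highest and HCC1937 lowest, without overlap. MT-TL1 spanned the lines more widely, with 2.93, 3.97 and 3.59 CPM in HCC1937, 87.7, 61.5 and 85.7 in HCC38 and 11.9, 11.1 and 11.7 in HCC1395, and HCC1937 less HCC38 was -4.50 ± 0.25 (adjusted p = 3.33e-12). Of 19 tRNAs tested, 13 were higher and 1 lower in HCC38 than in HCC1395, beside 38.2% and 36.5% of all genes, and 3 higher and 13 lower in HCC1937 than in HCC38, beside 36.2% and 35.6%. The 3 higher in HCC1937 became 1 without HCC38 DMSO library A or C or HCC1937 DMSO library B or C.

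Nuclear genes that copy, transcribe, cut, stabilise or degrade mitochondrial RNA were read from a list of 59, with the same fits. In HCC1395, 3 were higher and 25 lower with EZH2i, 7 and 31 with AKTi, and 4 and 45 with the combination, of 59 tested, with median log2 changes of -0.15, -0.18 and -0.35, beside 0.02, 0.06 and 0.07 over all genes. Of all genes, 14.9%, 22.6% and 27.4% were called lower in the same order. With EZH2i+AKTi, HCC38 had 1 higher and 21 lower of 58 (median -0.26 beside -0.01 over all genes) and HCC1937 1 higher and 41 lower of 58 (median -0.36 beside 0.03), beside 14.5% and 28.8% of all genes called lower. The HCC38 count of lower genes ranged from 7 without EZH2i+AKTi library B to 27 without library A, and was 23 without library C. It was 11, 10 and 12 without DMSO library A, B and C. In HCC1395 the AKTi count of higher genes was 4 without DMSO library A, and the EZH2i count 1 without DMSO library A or EZH2i library C. In HCC1395 with the combination, 18 of 20 genes of RNA stability, polyadenylation and decay were lower, and 6 of 8 genes of mitochondrial transcription.

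PPARGC1A, which encodes the coactivator PGC-1 alpha of mitochondrial biogenesis genes, went the other way in HCC1395. It had 4.27, 4.41 and 4.34 CPM with EZH2i, 5.14, 5.55 and 5.74 with AKTi and 7.12, 7.53 and 9.74 with the combination, against 2.24, 1.71 and 2.31 CPM with DMSO. No treated library overlapped with DMSO, and the log2 changes were 1.01 ± 0.15, 1.40 ± 0.14 and 1.93 ± 0.14 (SE), with adjusted p of 1.44e-05, 5.71e-08 and 1.67e-10. LRPPRC and SLIRP form a complex that stabilises mitochondrial mRNAs. LRPPRC had 112 ± 0.868 CPM with EZH2i in HCC1395 and 163 ± 9.85 with DMSO (SD), and fell by 0.58 on the log2 scale (adjusted p = 7.42e-08). With AKTi LRPPRC had 158.5 ± 4.39 CPM, close to DMSO, and with the combination 106 ± 9.71. SLIRP fell by 0.97 with AKTi in HCC1395 (adjusted p = 0.000142) and by 0.72 with EZH2i+AKTi in HCC38 (adjusted p = 0.00716, and by 0.55 without library C). With EZH2i in HCC1395 SLIRP had 42.7 ± 4.7 CPM, close to 44.8 ± 2.8 with DMSO, and with the combination 24.9 ± 4.92. RNASEH1, an RNase for RNA paired with DNA that acts in mitochondrial DNA copying, fell by 0.92 with the combination in HCC1395 (adjusted p = 7.95e-09), by 0.75 in HCC38 (adjusted p = 0.000924, and by 0.63 without library C) and by 0.89 in HCC1937 (adjusted p = 2.1e-07).

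Further list genes with large changes served RNA decay and regulation. In HCC1937, REXO2, an exonuclease for short RNAs, had 36.8 ± 1.86 CPM with EZH2i+AKTi and 18.5 ± 0.588 with DMSO, a rise of 0.98 (adjusted p = 1.34e-08). PDE12, which removes poly(A) tails in mitochondria, fell there by 0.93 (adjusted p = 2.54e-08) and PNPT1, the mitochondrial polynucleotide phosphorylase, by 0.86 (adjusted p = 2.89e-06). HCC38 less HCC1937 responses were -1.01 ± 0.11 for REXO2 (adjusted p = 1.59e-08) and 0.83 ± 0.11 for PDE12 (adjusted p = 1.18e-06). In HCC1395 the combination lowered FASTKD1, of a family of mitochondrial RNA-binding proteins, by 1.002 (adjusted p = 7.02e-11) and PPRC1, a PGC-1 related coactivator, by 0.87 (adjusted p = 4.14e-10). In HCC38, MRM3, a methyltransferase of the large-subunit rRNA, fell by 0.81 (adjusted p = 0.000393) and PUS1, a pseudouridine synthase of tRNAs, by 0.73 (adjusted p = 0.00309). Without library C they fell by 0.78 and 0.57, and the responses against HCC1937 were -1.02 for REXO2 and 0.73 for PDE12.

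With DMSO, some of these genes set the lines apart. TFAM, which packages mitochondrial DNA and starts its transcription, had 45.6 ± 3.798 CPM in HCC1937 and 203 ± 8.65 in HCC38, a log2 difference of -2.17 ± 0.08 (SE, adjusted p = 1.02e-20). LRPPRC had 56.4 ± 1.92 CPM in HCC1937 and 237 ± 8.67 in HCC38, at -2.09 ± 0.10 (adjusted p = 1.1e-17). TFB2M, a factor that opens the mitochondrial promoters, was lower in HCC1937 than in HCC38 by 1.73 (adjusted p = 1.16e-17). POLG, the catalytic subunit of the mitochondrial DNA polymerase, was lower in HCC1937 than in HCC1395 by 2.03 (adjusted p = 1.33e-17). MTERF3, of the mitochondrial termination factor family, was higher in HCC38 than in HCC1395 by 2.03 (adjusted p = 4.51e-18).

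The nuclear subunits that join the mitochondrial ones in complexes I, III, IV and V were read from a list of 78. With EZH2i in HCC1395, 1 was higher and 9 lower of 74 tested, with a median of 0.06. With AKTi none was higher and 41 lower (median -0.26), and with the combination 4 were higher and 37 lower (median -0.27). In HCC38 with EZH2i+AKTi none was higher and 53 lower of 75 (median -0.46), and in HCC1937 4 were higher and 26 lower of 74 (median -0.14). The backgrounds called lower and the all-gene medians are those given for the first list. The HCC38 count was 22 without EZH2i+AKTi library B, 57 without library A and 50 without library C, and 37, 23 and 44 without DMSO library A, B and C. In HCC1395 the EZH2i counts were 10 higher and 12 lower with only the 2 groups compared, 5 and 11 with no filter on low counts, and 4 and 9 with the replicate letter as a block. The EZH2i count of higher genes was 2 without DMSO library A or C or EZH2i library A, and 3 without EZH2i library C. The combination count of lower genes there was 56 without combination library B. The HCC1937 count of higher genes was 11 without EZH2i+AKTi library A and 2 without library B.

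By complex, HCC38 with EZH2i+AKTi had 25 of 37 nuclear subunits of complex I lower, 8 of 9 of complex III, 5 of 12 of complex IV and 15 of 17 of complex V. HCC1395 with AKTi had 19 of 36 of complex I lower, 7 of 9 of complex III, 5 of 12 of complex IV and 10 of 17 of complex V, while 11 of the 13 mitochondrial mRNAs were higher in the same comparison. Of all genes, 14.5% were called lower in HCC38 and 22.6% with AKTi in HCC1395. In HCC38 the counts for complexes I, III, IV and V were 9, 4, 1 and 8 without EZH2i+AKTi library B, and 22, 7, 5 and 16 without library C. They were 18, 5, 2 and 12 without DMSO library A, 11, 4, 1 and 7 without DMSO library B, and 21, 7, 2 and 14 without DMSO library C. CYC1, the cytochrome c1 that works beside the MT-CYB product in complex III, fell by 0.67 with AKTi in HCC1395 (adjusted p = 2.54e-08), by 0.61 with the combination (adjusted p = 6.07e-08), by 0.73 in HCC38 (adjusted p = 0.0021, and by 0.58 without library C) and by 0.56 in HCC1937 (adjusted p = 6.01e-06). ATP5MC1, one of the genes for the rotor ring of complex V, had 44.8 ± 2.43 CPM with AKTi and 47.3 ± 5.98 with the combination, against 105 ± 2.12 CPM with DMSO in HCC1395. It fell by 1.22 and 1.17 (adjusted p = 1.57e-10 and 1.27e-10). NDUFS1, a complex I subunit that holds iron-sulfur clusters, fell by 0.42 with EZH2i (adjusted p = 7.45e-07), by 0.83 with the combination (adjusted p = 8.07e-12) and by 0.64 in HCC1937 (adjusted p = 1.42e-07). COX7B, of complex IV, fell by 0.82 with AKTi (adjusted p = 0.00175) and by 0.66 with the combination (adjusted p = 0.00463). COX6B2, a complex IV isoform known from testis, was at 1.04 ± 0.0724 CPM with the combination and 0.319 ± 0.220 with DMSO, a rise of 1.66 (adjusted p = 0.00112).

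**Figure D5:**
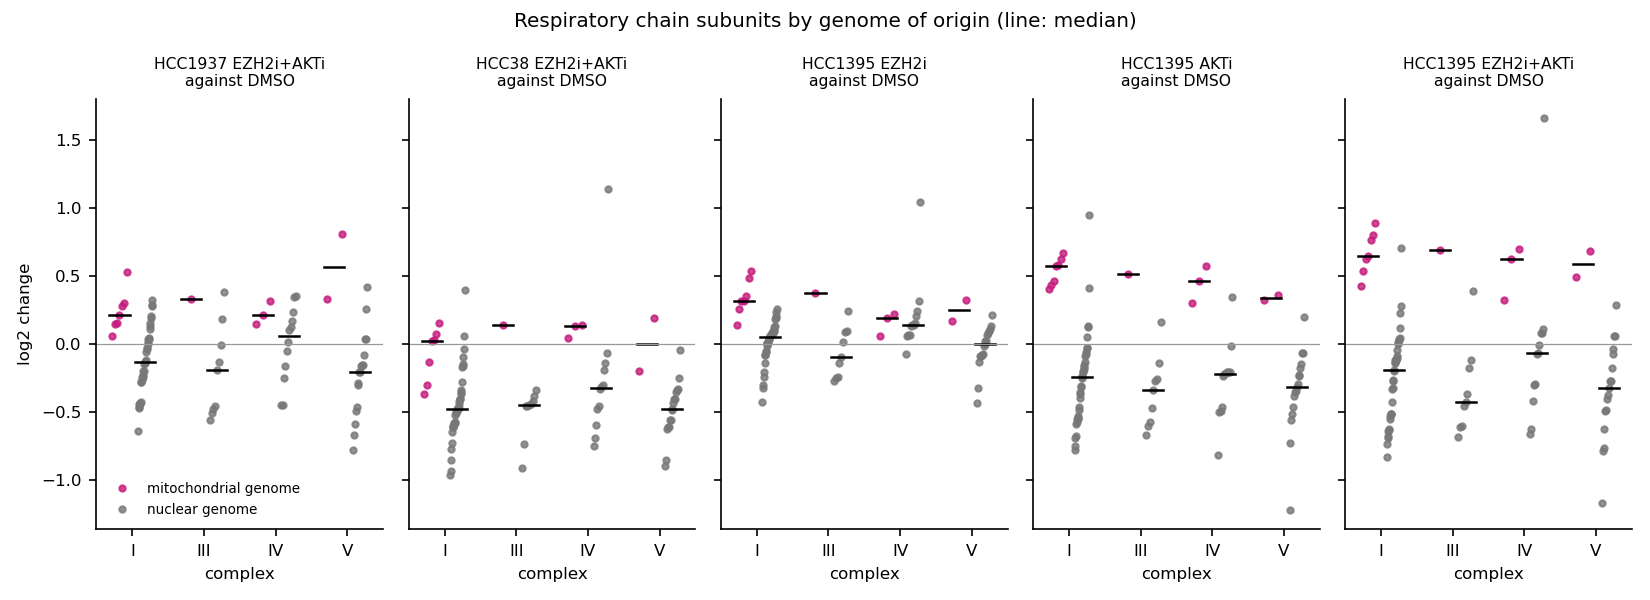
Log2 change (y axis) of mitochondrial and nuclear subunits of complexes I, III, IV and V (x axis) in 5 comparisons with DMSO; points are genes and lines medians. In HCC1395 with AKTi or the combination, the mitochondrial subunits lie mostly above 0 and the nuclear ones mostly below it.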

How the data were processed

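The deposited per-library tables held raw counts per gene, per the labels and the file values. Per the submitters' processing notes, the authors used fastp, HISAT2 2.0.5, DESeq2 and the build hg38; the read counter, its strand setting and the annotation release were not stated there or in the labels. The protocol names poly-T selection and either a directional or a non-directional library. From these counts, levels were computed as CPM (counts scaled to a library total of 1000000), also per kilobase of gene length, and as shares of the library. Library totals and replicate spread set the precision; replicates differed by more than sampling noise, with at least 2.56 in chi-square per degree of freedom.

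Fold changes came from edgeR 4.0.16 in R 4.3.3 (quasi-likelihood test, two-sided, TMM scaling, filterByExpr with a minimum count of 10, robust dispersion), with Benjamini-Hochberg adjustment over all genes tested and calls at 0.05. HCC1395 (12 libraries), HCC38 (6) and HCC1937 (6) were fitted apart, and differences between lines in 1 fit of 24. Scripts were tested on simulated data. Groups came from the sample titles. Letters A to C did not pair libraries: same-letter libraries had correlations of -0.43 to 0.26 in their deviations from group means, 7 of 24 over 0.1. Alternatives were RLE scaling, scaling without mitochondrial genes, no filter or at least 1 CPM in 3 libraries, DESeq2 1.42.0, the replicate letter as a block, only the 2 groups compared, and leaving out each library. Those for tRNAs and nuclear genes were chosen after seeing the data.

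Members and lists were chosen with earlier results of these data known. All mitochondrial genes are named by rule. Of the nuclear RNA handling list, the 4 called genes of largest change with a mean of at least 2 CPM per comparison could be named, and of nuclear subunits the 2 called genes of largest change per complex; the text gives a selection of these. The authors' deposited normalised tables were not used here. No protein sequences were used here.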

Additional observations from a re-analysis of the deposited data

Results flagged for a closer look

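Differences between line responses passed the test for several mitochondrial genes, all in the fit of 24 libraries. Between HCC38 and HCC1395, the EZH2i+AKTi response of the mRNAs MT-ND1, MT-ND4 and MT-ND6 was lower in HCC38, with log2 differences of -0.88, -0.76 and -0.80. The rRNA MT-RNR2 was at -1.08. The tRNAs MT-TV, MT-TW, MT-TN and MT-TC were at -1.62, -1.97, -1.17 and -1.76. MT-TY, MT-TS1, MT-TD and MT-TK were at -1.60, -1.84, -1.38 and -2.24, and MT-TE, MT-TT and MT-TP at -1.33, -1.81 and -0.68. The calls of MT-ND4, MT-TE and MT-TP were lost at least once when single libraries were left out. In all, 15 of 34 members tested had a lower response and none a higher one. Of all genes, 15.6% were called lower and 33.0% in either direction.

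Between HCC38 and HCC1937, the response differed by -0.70 for MT-RNR2 and -0.98 for MT-ATP8. The tRNAs MT-TN, MT-TC, MT-TY and MT-TD were at -1.35, -1.93, -1.05 and -1.12, and MT-TQ went the other way at 1.097. The calls of MT-ATP8, MT-TD and MT-TQ were lost at least once when single libraries were left out. Of 34 members tested, 6 were lower and 1 higher, beside 14.3% and 17.7% of all genes. Between HCC1937 and HCC1395 the tRNAs MT-TV, MT-TQ, MT-TM and MT-TE differed by -1.79, -1.63, -1.55 and -1.38. Within HCC1395, MT-RNR2 had an interaction of -0.41 between the inhibitors, a call also lost at least once when single libraries were left out.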

How the results depend on the processing

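Leaving out 1 library at a time gave between 7 and 10 mRNAs called for EZH2i in HCC1395, 11 and 11 for AKTi, 11 and 13 for the combination, 9 and 11 for the combination against EZH2i, 1 and 5 against AKTi, and 0 and 2 for the interaction. It gave between 0 and 6 in HCC38 and 0 and 4 in HCC1937 with EZH2i+AKTi. With DMSO it gave between 6 and 7 for HCC38 less HCC1395, 8 and 9 for HCC1937 less HCC38, and 5 and 8 for HCC1937 less HCC1395, with 5 without HCC1937 DMSO library C. For line responses it gave between 2 and 11 for HCC38 less HCC1395, 0 and 8 for HCC38 less HCC1937, and 0 and 2 for HCC1937 less HCC1395. The log2 ratio of the mRNA share to DMSO ranged from 0.21 to 0.32 for EZH2i, 0.48 to 0.53 for AKTi and 0.66 to 0.68 for the combination in HCC1395, -0.13 to 0.24 in HCC38 and 0.15 to 0.36 in HCC1937. With counts outside the mitochondrial genome as the denominator, the combination ratio in HCC1395 was 0.71, beside 0.67 with all counts. Without HCC38 EZH2i+AKTi library C, all 13 mRNA estimates were below 0 in HCC38, while 9 were above 0 with all libraries. Of these 9, 3 passed the test below 0, and their leave-out ranges were -0.24 to 0.20 for MT-ND2, -0.30 to 0.21 for MT-ND4 and -0.22 to 0.24 for MT-ND6.

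With no filter on low counts, 8 mRNAs were called for the combination against AKTi, 1 lower for the interaction, 2 lower in HCC38 and 2 higher in HCC1937. Responses then gave 13 lower for HCC38 less HCC1395, 4 lower for HCC38 less HCC1937 and 9 lower for HCC1937 less HCC1395. The stricter filter gave 3 higher in HCC1937 and 6 lower responses for HCC38 less HCC1395. DESeq2 gave 1 lower in HCC38, 3 higher in HCC1937, 8 lower responses for HCC38 less HCC1395 and 2 for HCC38 less HCC1937. Scaling without mitochondrial genes gave 7 lower responses for HCC38 less HCC1395. With the replicate letter as a block, a pairing that the data did not bear out, 2 mRNAs were lower in HCC38, 5 higher in HCC1937 and 5 responses lower for HCC38 less HCC1395, and 8 of 24 libraries correlated best with their own letter. The cause of these shifts was not tested. Over single mitochondrial genes, 5778 values kept direction and side of the threshold, 178 newly passed it, 254 no longer did and 3 reversed. A further 174 turned in sign while called under neither setting.

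Nuclear subunits called with EZH2i in HCC1395 were 10 in all as reported, 16 with no filter and 22 with only the 2 groups compared, and tRNAs called in HCC1937 were 2 with the replicate block. Depth limits the tRNAs most: those under about 1 CPM rest on few counts per library. Poly-T selection, unknown strand and nuclear copies limit rRNA, light-strand and low-level entries, and nuclear copies also limit MT-ND2.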

Other observations

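Nuclear copies of mitochondrial genes, pseudogenes of the same sequence family, were counted apart from the genes above. The files list 407, of which 100 had a count in any library. MTND2P28, at chr1:629640-630683 in the files' annotation, held 57.7% of their counts, MTATP6P1 33.0% and MTCO1P12 8.86%, together 99.6%, and MTND4P12 on chromosome 5 came next. Per library, copies came to between 0.466% and 1.70% of the mitochondrial counts. MTND2P28 had 163, 149.9 and 208 CPM with EZH2i+AKTi, against 135, 186 and 167 CPM with DMSO in HCC1937. In HCC38 it had 203, 216 and 391 CPM with EZH2i+AKTi, against 259, 197 and 249.7 CPM with DMSO. In HCC1395 it had 427, 448 and 385 CPM with EZH2i, 415, 433 and 392 with AKTi and 434, 520.3 and 459 with the combination, against 317, 315 and 314 CPM with DMSO. Over the lines with DMSO it was highest in HCC1395, where MT-ND2 itself was lowest. MT-ND2 averaged 2051 CPM in HCC1937, 2951 in HCC38 and 1505 in HCC1395. MTND2P28 averaged 162, 235 and 315 CPM in the same order, so it was largest beside MT-ND2 in HCC1395. Whether reads of MT-ND2 were counted to this copy was not tested. This limits the line differences of MT-ND2 and the ratio of MT-ND1 to MT-ND2 between lines.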
